A study of Mus musculus with 19 samples.

Results

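The insulin-like growth factor (IGF) axis was examined in 19 primary p53/MCA sarcomas of mice. It was represented by 10 genes, the ligands *Igf1* and *Igf2*, the noncoding RNA *H19*, the receptors *Igf1r* and *Igf2r*, and the binding proteins *Igfbp2*, *Igfbp3*, *Igfbp4*, *Igfbp5* and *Igfbp7*. The members were taken by symbol. Each symbol matched 1 of the 48795 gene rows, and all 10 had a mean log2 value above 0 and entered the tests. Tumors were raised in 11 lymphocyte-deficient *Rag2*-/- mice and 8 *Rag2*+/- littermates, which keep 1 working copy and have B and T cells. Both groups were 6 to 10 weeks old when the gastrocnemius muscle was injected with Adeno-sgp53-Cas9, an adenovirus that carries Cas9 and a guide against *Trp53*, and then with 300 µg of the carcinogen 3-methylcholanthrene (MCA) at 6 µg/µl in sesame oil. No tumor had received treatment, and each was taken at a volume of 70 to 150 mm3. Male and female mice were used. Each library was 1 bulk tumor, which holds injected muscle and host cells beside sarcoma cells, so fewer cells of a type and less RNA per cell cannot be told apart. The study's figure used 15 of the tumors, 8 *Rag2*-/- and 7 *Rag2*+/-. The paper states that samples with failed quality control or too little RNA or DNA were dropped, without naming them. All 19 tumors were used here, with the 15 as a second set.

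IGF1 and IGF2 are secreted growth factors that signal through the receptor tyrosine kinase IGF1R, while IGF2R takes up IGF2 and carries it to lysosomes. The binding proteins hold IGFs in serum and matrix and can limit or prolong their action. *Igf2* and *H19* are neighbors with opposite imprinting. *Igf2* is transcribed from the paternal and *H19* from the maternal chromosome, and both are high in fetal tissue, fall after birth and can be switched on again in tumors.

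Values are the authors' upper-quartile normalized FPKM (fragment counts divided by gene length and library size), on the log2 scale after 0.1 was added, so that a gene without reads stands at -3.32. The estimated depth was 24.7 to 33.6 M fragments on genes in 18 tumors and 5.18 M in the *Rag2*-/- tumor S41. The labels were checked on lymphocyte genes. The mean log2 value of 8 T cell genes was -1.66 ± 0.30 (SD, n = 11) in *Rag2*-/- and 1.66 ± 0.93 (SD, n = 8) in *Rag2*+/- tumors, with no overlap, and *Cd3e* was at -3.32 in every *Rag2*-/- tumor. *Rag2* itself was at -0.34 ± 0.74 (SD, n = 11) in *Rag2*-/- and -1.31 ± 0.70 (SD, n = 8) in *Rag2*+/- tumors, which does not separate the labels, and *Trp53* was at 4.31 ± 0.44 (SD, n = 11) and 4.52 ± 0.91 (SD, n = 8). As a check of the tissue, the mean of 12 fibroblast and mesenchymal genes was 5.06 to 7.81 and that of 6 epithelial genes -2.82 to 2.29. Tumors differed widely in muscle. The mean of 16 skeletal muscle fiber genes was 11.21 to 12.43 in 5 tumors, called muscle-rich here (S51 of the *Rag2*-/- group and S52, S56, S59 and S60 of the *Rag2*+/- group), and 3.73 to 9.30 in the other 14. The *Rag2*-/- tumor S46 stood apart in another way. It had the highest mean over adipocyte genes (9.40, against -1.09 to 6.72 in the others), macrophage genes (7.87, against 5.0 to 6.83) and endothelial genes (4.81, against 2.91 to 4.36). *Xist*, which is read from the inactive X chromosome of female cells, was above 0 in 7 of 11 *Rag2*-/- and 3 of 8 *Rag2*+/- tumors. Muscle content and *Xist* are thus unevenly spread over the genotypes, and S41, S46, S51 and S56 lie outside the 15 tumors of the study's figure.

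*H19* had the highest mean level of the 10 genes, 8.70 ± 1.24 (SD, n = 19) on the log2 scale, with a median of 544 normalized FPKM. By level it ranked between 57th and 310th of all genes in the 18 tumors other than S46. Since FPKM are divided by length, levels can be compared between genes, and *H19* exceeded the next gene, *Igfbp7*, by 1.57 on the log2 scale in mean level and in 18 of 19 tumors (adjusted p = 0.00395, two-sided exact sign-flip permutation test over tumors, adjusted over 9 neighbor pairs). After *H19* came *Igfbp7* (7.13 ± 0.51), *Igfbp4* (6.88 ± 0.53), *Igfbp5* (6.48 ± 0.87), *Igfbp3* (5.77 ± 1.70), *Igf2r* (5.02 ± 0.51), *Igf2* (4.80 ± 1.66), *Igf1* (4.01 ± 0.84), *Igf1r* (2.20 ± 0.62) and *Igfbp2* (1.68 ± 1.30; log2 levels, SD, n = 19). The only other step between neighbors that passed was the one from *Igf1* down to *Igf1r*, 1.81 in mean log2 level and in the same direction in 18 of 19 tumors (adjusted p = 6.87e-05, same exact permutation test). The other 7 steps had adjusted p of 0.0789 or more in that exact test, so a difference between these direct neighbors was not shown beyond the spread between tumors. Genes farther apart in the order were not tested against each other. Among the 15 tumors of the study's figure, 4 steps passed.

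**Figure D1:**
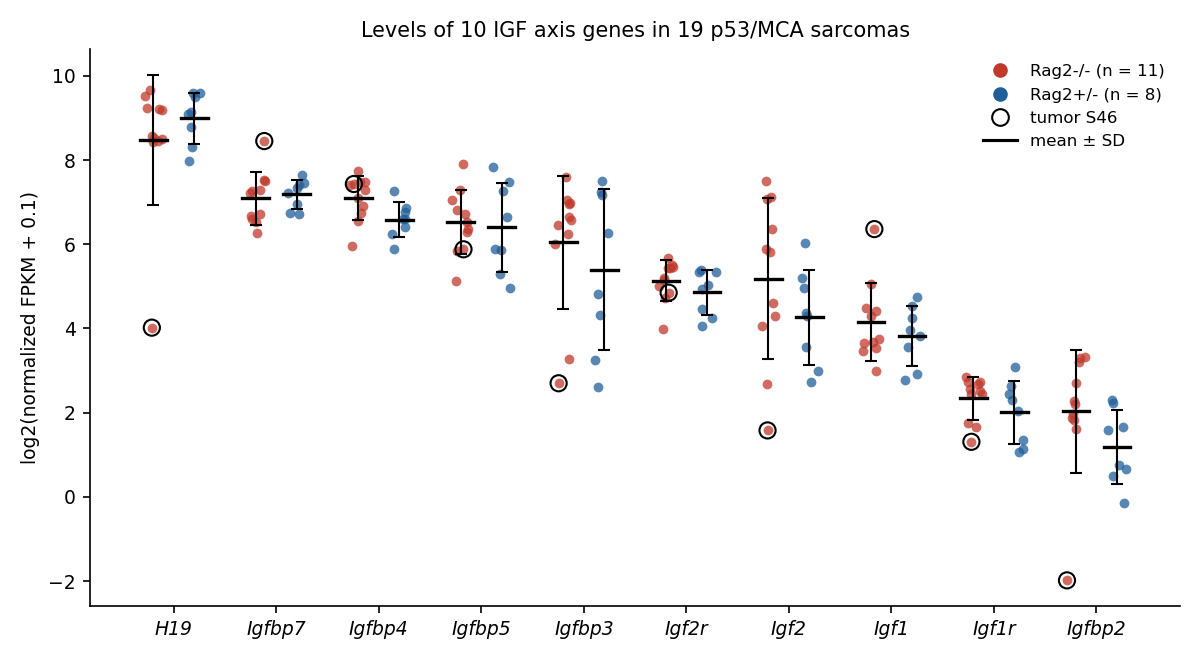
The plot gives the log2 level of each of the 10 genes (y axis, log2 of normalized FPKM plus 0.1) in each tumor, with *Rag2*-/- tumors in red (n = 11), *Rag2*+/- tumors in blue (n = 8), bars for the mean ± SD and a ring around tumor S46. *H19* is the highest gene in mean level, the genotypes overlap for every gene, and S46 is the lowest tumor for *H19*, *Igf2* and *Igfbp2* and the highest for *Igf1* and *Igfbp7*.

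The ligand *Igf1* (ENSMUSG00000020053, chr10:87858265-87937042 on the plus strand of GRCm38) is the main mediator of growth hormone and is also made by macrophages and fat. Its log2 level had its lowest value at 2.99, its median at 3.74 and its highest at 6.36 in *Rag2*-/- tumors, and at 2.77, 3.89 and 4.74 in *Rag2*+/- tumors. The groups overlapped almost fully, and the highest value belonged to S46, the tumor with the highest adipocyte and macrophage lists. Without S46 no tumor exceeded 5.06.

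*Igf2* (ENSMUSG00000048583, chr7:142650766-142666816, minus strand) is the fetal growth ligand. It ran from 1.58 over a median of 5.82 to 7.49 in *Rag2*-/- tumors and from 2.74 over 4.33 to 6.02 in *Rag2*+/- tumors, on the log2 scale. In linear terms, its level spanned 2.90 to 180.0 normalized FPKM over the 19 tumors. Its SD of 1.66 was larger than that of 95.2% of the 12826 genes tested, whose median SD was 0.52. The 4 tumors above every *Rag2*+/- tumor, S41, S43, S44 and S45, were all *Rag2*-/-, and the lowest tumor, S46, was *Rag2*-/- as well. In the 5 muscle-rich tumors *Igf2* lay at 2.69 to 4.29, and in the 13 others without S46 at 4.05 to 7.49.

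*H19* (ENSMUSG00000000031, chr7:142575529-142578143, minus strand) lies 72.6 kilobases from *Igf2*. Its lowest, median and highest log2 levels were 4.02, 8.57 and 9.66 in *Rag2*-/- and 7.97, 9.11 and 9.58 in *Rag2*+/- tumors. All tumors except S46, at 4.02, stood between 7.97 and 9.66. Without S46 the SD fell from 1.24 to 0.52, which was larger than that of 52.1% of genes. *H19* thus varied less than *Igf2* once S46 was set aside. It was 7.97 to 9.58 in the muscle-rich tumors, with S60 (7.97) and S59 (8.30) the lowest of these 18, and 8.42 to 9.66 in the other 13.

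*H19* RNA is also the precursor of a microRNA. The hairpin of *Mir675* (84 bases, chr7:142577064-142577147, minus strand) lies inside an exon in 3 of 7 annotated *H19* transcripts, among them the longest, where it is in exon 1. The second microRNA of the locus, *Mir483* (73 bases, chr7:142654924-142654996, minus strand), lies in an intron in 7 of 9 *Igf2* transcripts. Their sequences (RefSeq, GRCm38.p6) are shown because both genes were listed at -3.32 in all 19 tumors although *H19* stood between 7.97 and 9.66 in 18 of them and *Igf2* between 1.58 and 7.49 in all, so that the hosts' reads give no measure of either microRNA here. Capitals mark the mature arms in the hairpins and the seed, bases 2 to 8, in the mature forms.
Mir675 hairpin: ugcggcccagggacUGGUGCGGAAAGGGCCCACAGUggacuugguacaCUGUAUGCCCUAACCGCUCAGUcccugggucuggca
miR-675-5p: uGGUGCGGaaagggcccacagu
miR-675-3p: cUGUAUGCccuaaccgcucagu
Mir483 hairpin: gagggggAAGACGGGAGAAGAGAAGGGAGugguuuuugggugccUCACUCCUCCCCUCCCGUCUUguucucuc
miR-483-5p: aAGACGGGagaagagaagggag
miR-483-3p: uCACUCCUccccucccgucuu
All 4 seeds differ, so none of these microRNAs share a seed. How fragments over the hairpin were assigned is not given in the sources used here.

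The signaling receptor *Igf1r* (ENSMUSG00000005533, chr7:67952827-68233668, plus strand) was low. Its log2 level had a low of 1.31, a median of 2.52 and a high of 2.86 in *Rag2*-/- tumors, and 1.07, 2.17 and 3.08 in *Rag2*+/- tumors. The clearing receptor *Igf2r* (ENSMUSG00000023830, chr17:12682406-12769664, minus strand) ran from 3.98 over 5.21 to 5.68 in *Rag2*-/- and from 4.05 over 4.99 to 5.40 in *Rag2*+/- tumors. In the muscle-rich tumors *Igf1r* lay at 1.07 to 2.04 and *Igf2r* at 3.98 to 5.04, in both cases with the lowest tumor of all 19 among them. Other tumors lay in the same range, for *Igf1r* S46 at 1.31 and S47 at 1.76, and for *Igf2r* S47 at 4.73, S46 at 4.85, S55 at 4.93 and S42 at 5.02.

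Of the binding proteins, *Igfbp3* (ENSMUSG00000020427, chr11:7206086-7213923, minus strand), the main carrier of IGFs in serum, varied most. Its log2 level was 2.70 at the lowest, 6.57 at the median and 7.59 at the highest in *Rag2*-/- tumors, and 2.61, 5.54 and 7.49 in *Rag2*+/- tumors. It fell into clearly separate sets, with 2.61 to 4.81 in the 5 muscle-rich tumors and S46, and 6.01 to 7.59 in the other 13. Its SD of 1.70 exceeded that of 95.5% of genes over all 19 tumors, and was 0.50 within those 13.

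*Igfbp2* (ENSMUSG00000039323, chr1:72824503-72852474, plus strand) was the lowest of the 10 genes, at -1.98, 2.21 and 3.32 (lowest, median and highest log2 level) in *Rag2*-/- and -0.15, 1.17 and 2.30 in *Rag2*+/- tumors. It rested on the fewest fragments, an estimated 5 to 355 a tumor with a median of 99, so its value in S46 is a matter of few reads. *Igfbp5* (ENSMUSG00000026185, chr1:72857932-72874884, minus strand), its neighbor on chromosome 1 and a binding protein that attaches to matrix, was high in the muscle-rich tumors. Its levels were 5.12, 6.53 and 7.90 in *Rag2*-/- and 4.97, 6.27 and 7.83 in *Rag2*+/- tumors, with 6.64 to 7.90 in the muscle-rich tumors and 4.97 to 7.28 in the others.

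*Igfbp4* (ENSMUSG00000017493, chr11:99041244-99054392, plus strand), an inhibitor of IGF action that proteases such as PAPPA remove, stood at 5.97, 7.28 and 7.75 in *Rag2*-/- and 5.88, 6.60 and 7.27 in *Rag2*+/- tumors (lowest, median and highest log2 level). The median *Rag2*-/- tumor was thus just above the highest *Rag2*+/- tumor, while the lowest tumors of both groups were alike. *Igfbp7* (ENSMUSG00000036256, chr5:77349240-77408041, minus strand), which binds IGFs weakly and is made by vessels, had 6.26, 7.22 and 8.45 in *Rag2*-/- and 6.72, 7.27 and 7.65 in *Rag2*+/- tumors. With S46 aside, the largest value in either group was 7.65.

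Whether the host's lymphocytes went with other levels of these genes was asked by comparing *Rag2*-/- with *Rag2*+/- tumors. None of the 10 genes passed the test (0 of 10, adjusted p 0.301 to 0.859, limma with Benjamini-Hochberg adjustment over 12826 genes), beside 0.0312% of all genes tested, 4 genes, in the same fit. The filter on low values left out genes with a mean log2 value of 0 or less. Among them were the T cell genes *Cd3d*, *Cd3e*, *Cd3g*, *Cd8a* and *Cd8b1*, with differences of -4.8 to -4.02. For all 10 members the values of the genotypes overlapped. Among the members the difference was positive, higher in *Rag2*-/-, for 8 genes and negative for *H19* and *Igfbp7*, with a median of 0.33 on the log2 scale against 0.06 for all genes tested. At an unadjusted p under 0.05 stood 1 of 10, beside 16.3% of all genes. That gene was *Igfbp4*, at 7.10 ± 0.52 (SD, n = 11) against 6.58 ± 0.41 (SD, n = 8), a log2 difference of 0.52 (SE 0.22, 95% interval 0.07 to 0.97; exact permutation p = 0.0328, unadjusted). The *Igfbp4* difference had adjusted p = 0.301 in limma, so it did not pass. *Igf2* was at 5.18 ± 1.91 (SD, n = 11) in *Rag2*-/- and 4.27 ± 1.13 (SD, n = 8) in *Rag2*+/- tumors, a log2 difference of 0.92 with a 95% interval of -0.57 to 2.40. For *Igfbp2* the difference was 0.84 (-0.32 to 1.99), for *Igfbp3* 0.65 (-0.92 to 2.21) and for *H19* -0.51 (-1.65 to 0.63). With upper bounds of 1.99 to 2.40 on the log2 scale for *Igf2*, *Igfbp2* and *Igfbp3*, these 19 tumors leave room for large differences in these 3 genes. The narrowest intervals belonged to *Igfbp4*, *Igf2r* (0.27, -0.20 to 0.75) and *Igfbp7* (-0.10, -0.59 to 0.40), and *Igf1* (0.34, -0.44 to 1.12), *Igf1r* (0.33, -0.25 to 0.91) and *Igfbp5* (0.12, -0.70 to 0.95) lay between.

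Single tumors set the size of some differences. Without S46 that of *H19* was -0.07, that of *Igf1* 0.11 and that of *Igfbp3* 0.98, and without S56 that of *Igfbp3* was 0.25. In the 15 tumors of the study's figure, again 0 of 10 passed (adjusted p 0.217 to 0.778 in limma, beside 0.116% of genes), and 3 of 10 had an unadjusted p under 0.05, beside 22.1% of genes. These were *Igf2*, *Igfbp2* and *Igfbp4*. The *Igf2* difference grew to 1.43, that of *Igfbp2* to 1.25 and that of *H19* turned to 0.14. With the muscle list as a covariate the differences of *Igf1r*, *Igf2r* and *Igfbp3* turned negative, that of *Igf2* was 0.32, that of *Igf1* 0.61 and that of *Igfbp5* 0.68. With *Xist* as a covariate the difference was 0.29 for *Igf2*, 0.01 for *Igfbp3* and -0.78 for *H19*.

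**Figure D2:**
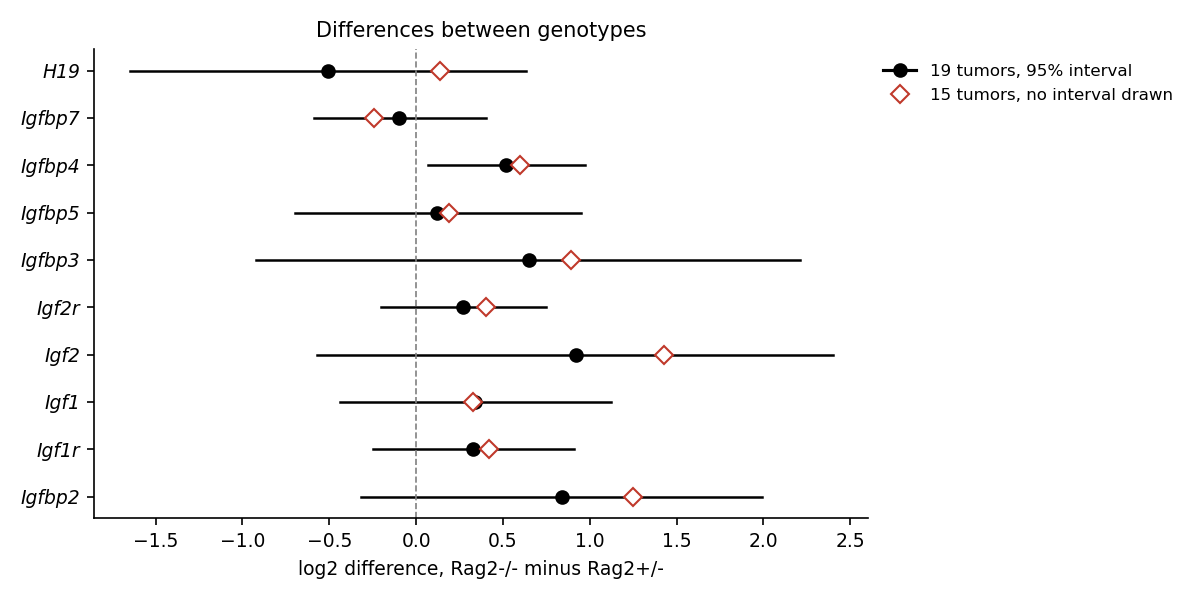
The plot gives the log2 difference between genotypes for each of the 10 genes (x axis, *Rag2*-/- minus *Rag2*+/-), as filled circles with 95% intervals for all 19 tumors and as open diamonds for the 15 tumors of the study's figure. Only the interval of *Igfbp4*, from 0.07 to 0.97 before adjustment over genes, does not hold 0.

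*H19* and *Igf2* share enhancers and a differentially methylated control region, so their levels were also set against each other within each tumor. *H19* was above *Igf2* in 19 of 19 tumors, by 1.74 (S43) to 6.02 (S56) with a median of 3.92 on the log2 scale. The difference was 3.30 ± 1.25 (SD, n = 11) in *Rag2*-/- and 4.73 ± 0.97 (SD, n = 8) in *Rag2*+/- tumors, lower by 1.43 in *Rag2*-/- (p = 0.0174, two-sided exact permutation test over 75582 relabelings, not adjusted for the 10 genes compared beside it). The *Rag2*-/- tumors spanned 1.74 to 5.76 and the *Rag2*+/- tumors 3.12 to 6.02, so the groups overlapped. This quantity moved with muscle. It was 4.99 to 6.02 in the 5 muscle-rich tumors, 4 of them *Rag2*+/-, and 1.74 to 4.72 in the other 14, with no overlap, and 12 of 16 muscle genes were themselves lower in *Rag2*-/- tumors at an unadjusted p under 0.05, beside 16.3% of all genes in either direction (0 of 16 after adjustment in limma). The muscle list's summed level ran from 384 to 1.21e+05 normalized FPKM in *Rag2*-/- and from 2.07e+03 to 1.83e+05 in *Rag2*+/- tumors, with no gene of the list at -3.32 in all tumors. Within the 14 tumors the difference between genotypes was -0.96 (10 against 4 tumors, exact permutation p = 0.115), and within them the quantity had r = 0.18 with the muscle list (rho = 0.26, permutation p = 0.540, adjusted 0.677 over 3 lists; r = 0.31 without the 2 tumors farthest on the list), 0.12 with the cell cycle list and -0.23 with the macrophage list. Over all 19 tumors r was 0.70 with the muscle list (rho = 0.69, permutation p = 0.00098, adjusted 0.0027, r = 0.79 without the 2 farthest) and -0.67 with the cell cycle list (rho = -0.56, permutation p = 0.0018, adjusted 0.0027, r = -0.50 without the 2 farthest), which join the muscle-rich tumors and the others. Among the 10 tumors with *Xist* above 0 the genotypes differed by -0.84 (7 against 3, exact permutation p = 0.267), and among the 9 others by -1.36 (4 against 5, exact permutation p = 0.0714). The direction was the same in each of these sets, the test was not passed in any of them, and the part of muscle and *Xist* in the pooled difference was not tested further.

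**Figure D3:**
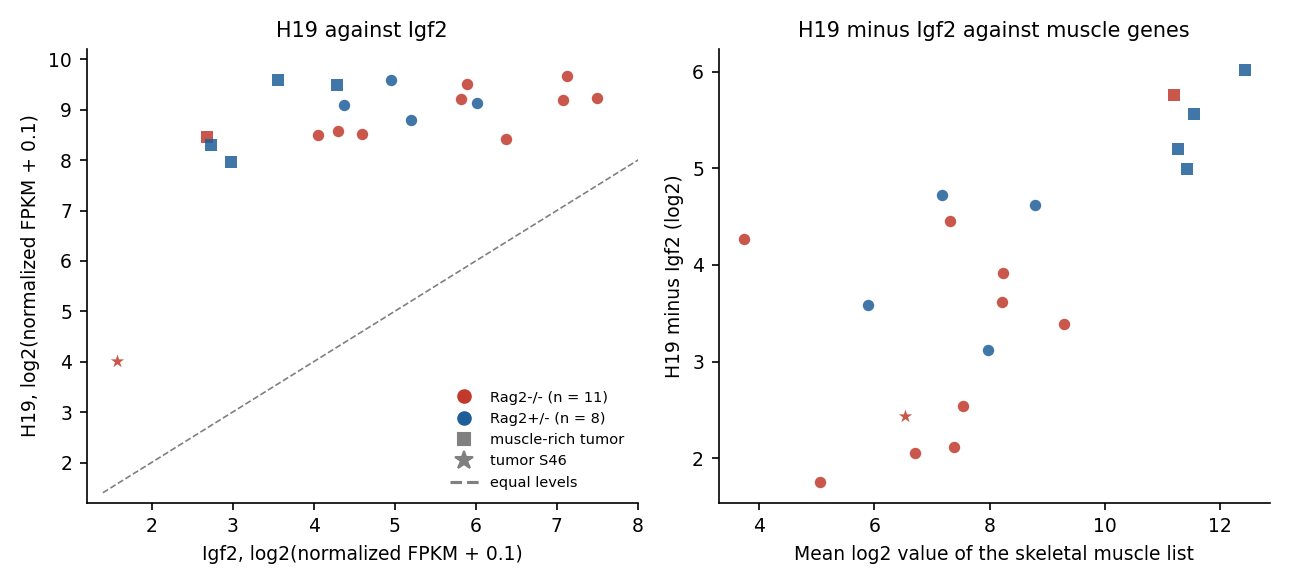
The left plot sets the log2 level of *H19* (y axis) against that of *Igf2* (x axis), and the right plot sets *H19* minus *Igf2* (y axis, log2) against the mean log2 value of the skeletal muscle list (x axis), 1 point a tumor, with *Rag2*-/- in red, *Rag2*+/- in blue, squares for muscle-rich tumors and a star for S46. All tumors lie above the dashed line of equal levels, and the 5 squares, at 4.99 to 6.02, lie above the other 14 tumors in the right plot.

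The members were then compared with each other across tumors. Over all 19 tumors, 10 of 45 pairs passed (adjusted p under 0.05, permutation test of Pearson's r), 8 with a positive and 2 with a negative r. An r above 0.6 in size was held by 22.2% of the 45 pairs, beside 26.9% of all pairs of the 12826 genes tested, so the members' share was no larger than that of genes in general. All 6 pairs among *Igf2*, *Igf1r*, *Igf2r* and *Igfbp3* passed. *Igf1r* and *Igfbp3* had the highest r of all 45, 0.89 (rho = 0.81, permutation p = 2e-05, adjusted 0.00045, r = 0.89 without S59 and S60). *Igf1r* and *Igf2r* followed with r = 0.85 (rho = 0.75, permutation p = 1e-05, adjusted 0.00045, r = 0.78 without S59 and S60), and the other 4 of these pairs had r of 0.66 to 0.80. *Igf2* also had r = 0.62 with *H19* (rho = 0.55, permutation p = 0.00071, adjusted 0.00532), which fell to 0.51 without S43 and S46 (adjusted 0.169). *Igf1* had r = 0.62 with *Igfbp7* and 0.33 without S46 and S47, so that relation rested on those tumors. The negative pairs were *Igf2r* with *Igfbp5*, with r = -0.63, which no longer passed without S51 and S59 (r = -0.50, adjusted p = 0.174 by permutation), and *Igf1r* with *Igfbp7*, with r = -0.60 (-0.68 without S59 and S60).

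All 10 of these pairs had an r closer to 0 in the 13 tumors that remain without the muscle-rich ones and S46, where fewer tumors also give less power. The 5 muscle-rich tumors and S46 were low in *Igf2*, *Igf1r*, *Igf2r* and *Igfbp3*, though only for *Igfbp3* with no overlap. In the 13 remaining tumors, 9 *Rag2*-/- and 4 *Rag2*+/-, 0 of 45 pairs passed (5 had an unadjusted permutation p under 0.05), and 8.89% had an r above 0.6 in size, beside 7.39% of all gene pairs. There *Igf1r* had r = 0.54 with *Igfbp3* (rho = 0.48, permutation p = 0.0515, adjusted 0.386, 0.44 without its 2 farthest tumors) and r = 0.63 with *Igf2r* (rho = 0.37, permutation p = 0.0205, adjusted 0.231, 0.32 without its 2 farthest tumors). *Igf2* had r of 0.11, 0.11 and 0.15 with *Igf1r*, *Igf2r* and *Igfbp3*, and 0.49 with *H19* (rho = 0.50, permutation p = 0.0915, adjusted 0.406). The largest r in size among these 13 was a negative one, -0.76 between *Igf1* and *Igfbp3* (permutation p = 0.00291, adjusted 0.131, -0.67 without its 2 farthest tumors). Within the genotypes, 3 pairs passed in the 11 *Rag2*-/- tumors and 6 in the 8 *Rag2*+/- tumors, both of which hold muscle-rich tumors.

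**Figure D4:**
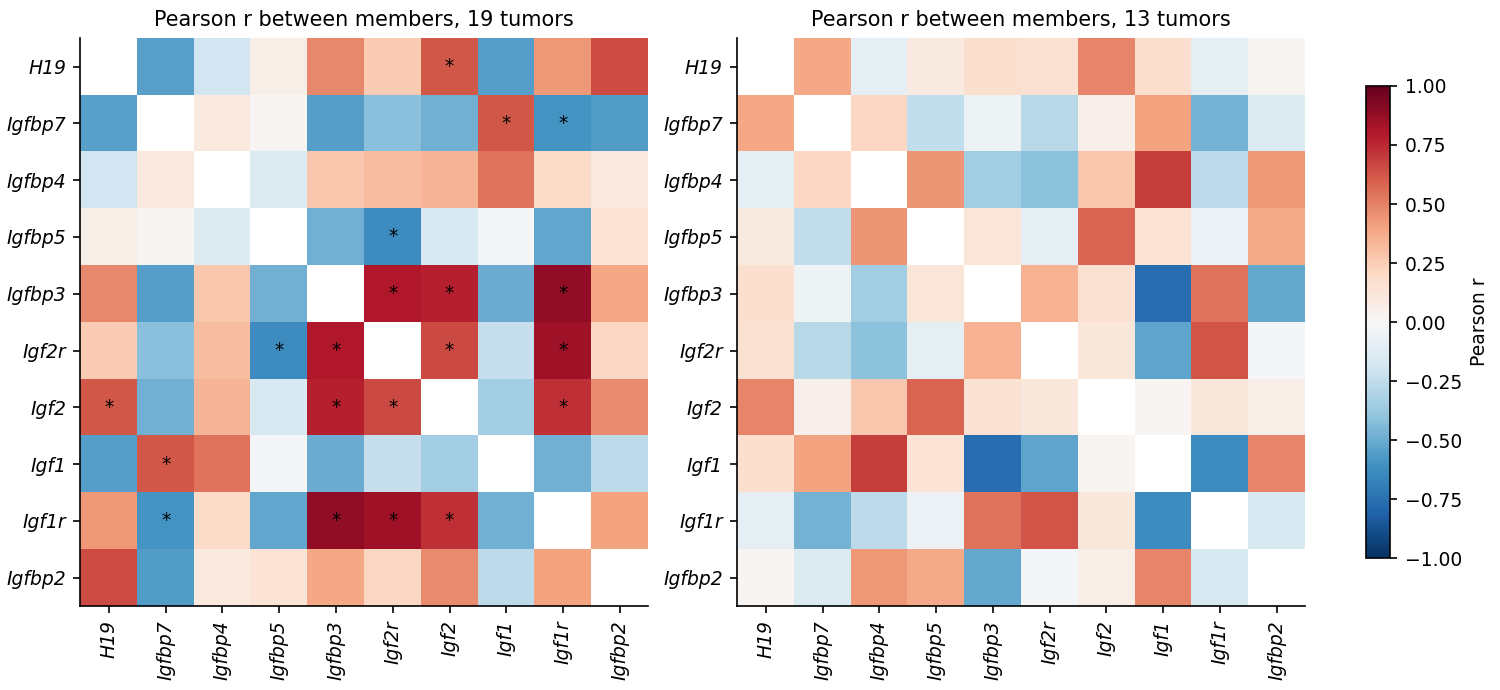
Each cell gives Pearson's r (color, from -1 in blue to 1 in red) between the log2 levels of a pair of genes, over all 19 tumors on the left and over the 13 tumors without the 5 muscle-rich ones and S46 on the right, with an asterisk where the adjusted p was under 0.05. The left plot has 10 marked pairs, each shown on both sides of the diagonal, and the right plot has 0.

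The members were also set against cell type and cell cycle lists. Of 100 pairs of a member and a list, 29 passed over 19 tumors and 6 in the 13 tumors. An r above 0.6 in size was held by 25% of the 100 pairs over 19 tumors, beside 24.5% of all pairs of a tested gene and a list. In the 13 tumors it was 14% beside 12.2%, so in both sets the members' share was near that of genes in general. In the 14 tumors that were not muscle-rich, S46 included, the members' share was larger, 28% beside 15.3%. The mean of 14 cell cycle genes was 1.39 to 3.65 in the muscle-rich and 3.84 to 5.20 in the other tumors, and r over all tumors joins these sets. Over all 19, r with the cell cycle list was 0.93 for *Igf2r* (rho = 0.78, permutation p = 1e-05, adjusted 0.001, 0.90 without S51 and S56), 0.85 for *Igf1r* (rho = 0.82, permutation p = 5e-05, adjusted 0.00167, 0.89 without S51 and S56) and 0.85 for *Igfbp3* (rho = 0.76, permutation p = 0.00012, adjusted 0.002, 0.78 without S51 and S56). In the 14 tumors that were not muscle-rich, S46 included, *Igf1r* (r = 0.77, rho = 0.64, adjusted p = 0.0162 by permutation) and *Igf2r* (r = 0.70, rho = 0.52, adjusted p = 0.0421 by permutation) passed and *Igfbp3* did not (r = 0.62, rho = 0.45, adjusted p = 0.0509 by permutation). Without S46, in the 13 tumors *Igf1r* had r = 0.67 with the cell cycle list (rho = 0.55, permutation p = 0.0110, adjusted 0.0930), *Igf2r* 0.62 (rho = 0.41, adjusted p = 0.163 by permutation) and *Igfbp3* 0.40 (rho = 0.32, adjusted p = 0.423 by permutation), none past the test in this smaller set. *Igf1* ran the other way, with r = -0.80 (rho = -0.83, permutation p = 0.00128, adjusted 0.0268, -0.71 without S53 and S55). Over all 19 tumors, where the muscle-rich tumors join, *Igf1* did not pass with this list (r = -0.21, rho = -0.58, permutation p = 0.388, adjusted 0.554). *Igfbp7* went with the 10 endothelial genes, with r = 0.84 in these 13 tumors (rho = 0.84, permutation p = 0.00050, adjusted 0.0177, 0.86 without S41 and S58) and r = 0.82 in all 19 (rho = 0.77, permutation p = 4e-05, adjusted 0.00167, 0.73 without S46 and S56). The remaining 4 pairs that passed in the 13 tumors were *Igf1* and *Igf1r* with the adipocyte and epithelial lists. Their r in the 13 tumors shrank in size without S47 and S55, from 0.73 to 0.42 and from 0.74 to 0.50 for *Igf1*, and from -0.85 to -0.49 and from -0.79 to -0.26 for *Igf1r*. With all 13, rho was 0.66 and 0.80 for *Igf1* and -0.74 and -0.56 for *Igf1r*. Over all 19 tumors both genes passed with the adipocyte list (r = 0.68 and -0.81, adjusted p = 0.0101 and 0.0018 by permutation), but not with the epithelial list. Without S46 and S47 the adipocyte r was 0.34 for *Igf1* and -0.81 for *Igf1r*.

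**Figure D5:**
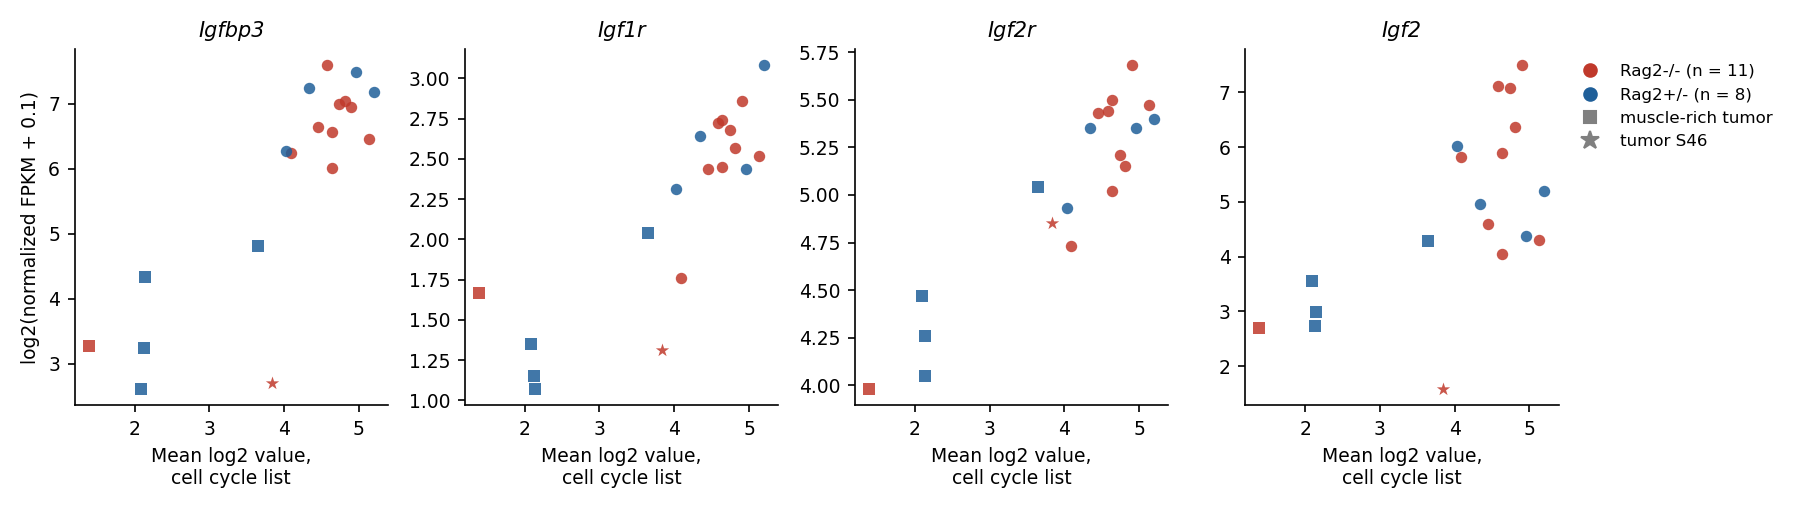
Each plot sets the log2 level of a gene (y axis, log2 of normalized FPKM plus 0.1; *Igfbp3*, *Igf1r*, *Igf2r* and *Igf2* from left to right) against the mean log2 value of the cell cycle list (x axis), 1 point a tumor, with *Rag2*-/- in red, *Rag2*+/- in blue, squares for muscle-rich tumors and a star for S46. The muscle-rich tumors, at 1.39 to 3.65 on the x axis, are the lowest on that axis, and *Igfbp3* in S46 is as low as in them although its cell cycle mean is 3.84.

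The promoters of *Igf1r* and *Igfbp3*, the pair with the highest r over 19 tumors, are shown as RefSeq gives them (GRCm38.p6, 250 bases before to 50 after the RefSeq start, chr7:67952007-67952306 on the plus strand and chr11:7213874-7214173 on the minus strand). Capitals mark GGGCGG, the GC box, or its reverse complement.
Igf1r promoter: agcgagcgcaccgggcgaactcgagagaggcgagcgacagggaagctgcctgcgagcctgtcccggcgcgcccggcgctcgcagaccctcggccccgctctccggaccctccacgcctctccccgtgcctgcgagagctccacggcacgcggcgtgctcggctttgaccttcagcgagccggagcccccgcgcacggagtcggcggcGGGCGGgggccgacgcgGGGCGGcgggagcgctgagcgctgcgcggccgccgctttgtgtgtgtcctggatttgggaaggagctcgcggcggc
Igfbp3 promoter: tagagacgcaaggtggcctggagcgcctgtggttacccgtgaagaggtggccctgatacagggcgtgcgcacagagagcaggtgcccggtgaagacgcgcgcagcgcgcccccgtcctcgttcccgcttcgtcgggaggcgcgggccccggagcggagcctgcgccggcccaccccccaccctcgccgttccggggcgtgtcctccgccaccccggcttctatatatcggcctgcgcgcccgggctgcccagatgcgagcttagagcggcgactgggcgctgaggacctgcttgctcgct
Both windows were rich in G and C, with 76.0% and 71.7% of bases, above 96.9% and 92.6% of the 32851 promoters of the table. *Igf1r* held GGGCGG 2 times and *Igfbp3* 0 times on either strand. The motif was found in 4 of the 9 members with a promoter in the table (*Igf1r*, *Igf2r*, *Igfbp2* and *Igfbp7*) and in 35.7% of all promoters. TATAAA was found in 1 of 9, *Igfbp4*, and in 13.6% of all, and the E-box CACGTG in 2 of 9, *Igf2r* and *Igfbp2*, and in 7.15% of all. These matches describe the letters of the windows and were not tested against the expression values.

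For each member the genes with the most similar pattern over the 19 tumors were listed as a description, since the points share the same tumors and the split by muscle. *Igfbp3* had r = 0.97 with *Fosl1*, an AP-1 subunit, 0.96 with *Fhl2* and 0.96 with *Epb41l3*. *Igf1r* had 0.96 with *Nvl*, 0.96 with *Hmga1*, a chromatin protein of proliferating cells, and 0.95 with *Phactr4*, and *Igf2r* had 0.96 with *Arhgef40*, *Yeats2* and *Cul7*. *Igf2* was most like *Pcdh9* (0.89), the WNT enhancer *Rspo2* (0.88) and *Fibin* (0.87). Without S46 the lowest of these 12 values was 0.85, for *Igf2* with *Pcdh9* and *Rspo2*. *H19* was most like *Dtx3* (0.89), *Ankrd1* (0.87) and *Prkca* (0.85), which fell to 0.50, 0.44 and 0.38 without S46, so its likeness rested on that tumor. *Igf1* was most like *Dapk1*, *Dhrs3* and *Ccdc80* (0.85 to 0.87, and 0.70 to 0.79 without S46), *Igfbp2* like *Brinp3*, *Gdnf* and *Foxf1* (0.76 to 0.79, and 0.53 to 0.69 without S46), *Igfbp4* like *Adamts2*, *Srpx* and *Fzd1* (0.84 to 0.87), and *Igfbp5* like *Ubac2*, *Insig2* and *U2af1l4* (0.83 to 0.85). *Igfbp7* was most like *C130074G19Rik* (0.94) and *Ramp2* (0.89), which encodes a receptor partner used by endothelium, and *Cables1* (0.87).

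The rest of the pathway gave the same answer between genotypes. Of 40 other IGF axis genes, 27 were tested and 0 passed in either direction (2 at an unadjusted limma p under 0.05, beside 16.3% of all genes), with a median difference of 0.22 against 0.06 for all genes. The 6 with the lowest p were all higher in *Rag2*-/- tumors by their means. They were *Foxo3* (log2 difference 0.49), a transcription factor that AKT restrains, *Pik3cb* (0.45) and *Pik3r1* (0.38), which encode subunits of the PI3 kinase, *Stc2* (0.69), an inhibitor of the protease PAPPA, and the adaptors *Irs2* (0.44) and *Shc1* (0.50), with adjusted p of 0.301 to 0.324 in limma. *Igfbp1*, *Ins1*, *Mir675* and *Mir483* were listed at -3.32 in all 19 tumors.

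Imprinted genes were compared because *Igf2* and *H19* belong to them. Of 26, 19 were tested and 0 passed between genotypes (4 at an unadjusted limma p under 0.05, beside 16.3% of all genes). The 5 with the lowest p were *Slc38a4*, a placental amino acid transporter (log2 difference -1.35), *Ndn* (0.68), the noncoding RNA *Mirg* (1.05), *Gnas* (-0.39) and *Sgce* (0.60), with adjusted p of 0.301 to 0.320 in limma. Across tumors *Igf2* had r above 0.5 with 12 of the 19 tested, 63.2% beside 24.1% of all genes, led by the growth regulator *Dlk1* at r = 0.84. In the 14 tumors that were not muscle-rich it had this with 8 of 19, 42.1% beside 11.3% of all genes, led by *Cdkn1c*, a cell cycle inhibitor, at r = 0.83. S46, the lowest tumor for *Igf2*, is among these 14, and in the 13 without it the count was 5 of 19, 26.3% beside 3.37% of all genes, again led by *Cdkn1c*, at r = 0.65. The others were *Plagl1*, *Dlk1*, *Meg3* and *Rian*. These shares count genes, not independent loci, and the excess over all genes was not tested. *H19* had r above 0.5 with 4 of 19 in all tumors (21.1% beside 5.59% of all genes), with 9 of 19 in the 14 tumors (47.4% beside 20%), with 0 of 19 without S46 (beside 1.37%) and with 0 of 19 in the 13 tumors (beside 2.71%), so its counts rested on S46.

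Of 12 neighbors of *H19* and *Igf2* on chromosome 7, 8 were tested and 0 passed (1 at an unadjusted limma p under 0.05, *Tnnt3*, beside 16.3% of all genes). The neighbors *Tnnt3* (log2 difference -2.22) and *Tnni2* (-2.12) encode fast muscle troponins and belong to the muscle list, and *Nctc1* (-1.66) is a noncoding RNA at the muscle enhancer of the locus. *Lsp1* (0.48), *Mrpl23* (0.33), *Tspan32* (0.35), *Cd81* (0.12) and *Ctsd* (-0.08) had smaller differences, with adjusted p of 0.358 to 0.882 in limma. The gene models of some members overlap those of other annotated genes. *Igf2* shares 3596 of its 5723 exonic bases with *Gm49394* on the same strand, which has no row in the values used here, and 98 with *Igf2os* on the opposite strand, while *Igfbp7* shares 85 of 1209 with *Polr2b* on the opposite strand. The strand setting of the counting is not given in the sources used here, so the overlaps with *Igf2os* and *Polr2b* leave these levels uncertain to that extent.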

How the data were processed

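RNA of 19 tumors was sequenced as 150-base read pairs on a NovaSeq after NEBNext Ultra II library preparation. The authors deposited log2 values of upper-quartile normalized FPKM plus 0.1 per gene. The study's methods describe values of this kind for its neoantigen expression analysis, whose reads were aligned to mouse B38 in Omicsoft with Ensembl R86 models, and STAR with HTSeq for the raw counts of its differential expression analysis. The submitters' processing notes list Trimmomatic 0.36, STAR, HTSeq and mm10, with no role given. These are not counts, so no count model was used. Depth was estimated from the steps of low values in single-transcript genes (tolerance 0.05 of a fragment), with GENCODE vM21 models on GRCm38, which gave positions too. Symbols were matched for 48349 of 48795 rows.

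Genotypes were compared with limma 3.58.1 (R 4.3.3) with an intensity trend over 12826 genes with a mean log2 value above 0, and single values with two-sided exact permutation tests. Recovery was checked on simulated independent normal values with the mean and SD of each of the 12826 genes (11 against 8 tumors). Differences were added to 200 of them. Of those with a log2 difference of 2, 86% were recovered, and of those with 4, 99%. Genes of real tumors vary together, so these shares do not give the power of the comparison above. Correlations used 100000 permutations (all of them for 8 tumors), adjusted over 45 gene pairs or 100 pairs of a gene and a list. Python 3.11.15, numpy 2.4.6, pandas 2.3.3, scipy 1.17.1 and matplotlib 3.10.9 were used. The labels name tumors and give no further replicate structure. Named were all members, of other IGF axis genes the 6 and of imprinted genes the 5 with the lowest p, neighbors of *H19* and *Igf2* with a mean log2 value above 0, and the 3 most alike genes per member. The members, gene lists and tests were chosen with earlier results of these data known. The muscle-rich split (list mean above 10), the sets of 13 and 14 tumors, the split by *Xist* and the fits without S46 or without S41 and S46 were chosen after seeing the data. The depth rule was revised once after its first form gave too few whole fragments.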

Additional observations from a re-analysis of the deposited data

How the results depend on the processing

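No paired analysis was possible because the labels number no tumor of 1 genotype with a tumor of the other. The count of genes passing between genotypes stayed 0 of 10 with the 15 tumors, each tumor left out, S41 and S46 left out, pseudocounts of 1 and 0.01, no filter, a common median, quantile normalization, other variance models, and the muscle list or *Xist* as a covariate. With a filter at a mean above 2 it was 0 of 9, since *Igfbp2* was not tested there. The lowest adjusted p was 0.0941, for *Igfbp4* without S51. Differences changed sign for *H19* (0.14 in the 15 tumors), for *Igfbp5* (-0.01 without S51, -0.08 without S53, -0.03 without S58, and up to 0.33 with another tumor left out), for *Igfbp7* (0.08 with quantile normalization, 0.09 with the muscle list, 0.07 with *Xist*), and with the muscle list for *Igf1r* (-0.10), *Igf2r* (-0.10) and *Igfbp3* (-0.45). The cause was not tested. *H19* minus *Igf2* differed by -1.67 to -1.24 with each tumor left out (exact permutation p 0.00359 to 0.0385), by -1.29 in the 15 tumors and by -1.19 without S41 and S46. It no longer passed in the smaller sets (-0.96 in the 14 tumors, -0.84 with *Xist* above 0, -1.36 with *Xist* under 0). Steps in the order of levels that passed rose from 2 to 4 in the 15 tumors, and were 2 to 4 with each tumor left out, with 4 without S46. Gene pairs that passed went from 10 to 9 without S46, 7 in the 14 tumors, 7 without the 2 farthest tumors, 4 in the 15 tumors, 3 within *Rag2*-/-, 6 within *Rag2*+/- and 0 in the 13 tumors. Pairs with lists went from 29 to 30 without S46, 16 in the 15 tumors, 4 within *Rag2*-/-, 6 within *Rag2*+/-, 14 in the 14 tumors, 6 in the 13 and 14 without the 2 farthest tumors. These sets hold fewer tumors.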
